A study of Mus musculus with 6 samples.

Results

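Glutathione is made from glutamate, cysteine and glycine, and 10 genes of its synthesis, its recycling and the supply of its cysteine were followed here in mouse lung group 2 innate lymphoid cells (ILC2s) cultured with or without melatonin. The 10 genes were set by name, as *Gclc*, *Gclm*, *Gss*, *Gsr*, *Slc7a11*, *Cth*, *Cbs*, *Mat2a*, *Ahcy* and *Chac1*, and all 10 were found among the 16381 genes of the deposited table. Activated ILC2s (aILC2s) were sorted from lungs of wild type BALB/cJ mice, which the methods describe as female and aged 6 to 8 weeks, after intranasal IL-33 at 0.5 µg per day for 3 days, and no sample came from an unchallenged animal. The melatonin group (3 samples) was cultured for 24 h with 250 µM melatonin, and the vehicle group (3 samples) for the same time with DMSO, the solvent of melatonin. The sources do not say how many mice or separate cultures stand behind a sample, so p-values measure the spread between these samples, which may be technical. Values are normalized counts, that is estimated reads per gene divided by a size factor per sample, from libraries of between 17056239 and 20511667 estimated counts.

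Glutathione is built by successive ligations. In the first and rate-limiting step, glutamate-cysteine ligase joins glutamate to cysteine. The enzyme is a pair of a catalytic subunit (*Gclc*) and a modifier subunit (*Gclm*), and glutathione synthetase (*Gss*) then adds glycine. Oxidized glutathione is returned to its reduced form by glutathione reductase (*Gsr*), and CHAC1 cleaves glutathione inside the cell. Cysteine enters as cystine through the antiporter formed by xCT (*Slc7a11*) with 4F2hc (*Slc3a2*), or is made from methionine by way of S-adenosylmethionine (*Mat2a*), homocysteine (*Ahcy*) and transsulfuration (*Cbs*, then *Cth*). Genes of the ligase and *Slc7a11* are textbook targets of the transcription factor NRF2, and *Slc7a11*, *Cth* and *Chac1* also of ATF4.

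The promoter windows that carry a motif of either factor are shown. RefSeq windows (250 bases before to 50 after the start that RefSeq gives) were at hand for 7 of the 10 genes, all but *Gclc*, *Gsr* and *Cth*. The windows carry the build GRCm38.p6, and each matched GRCm39 exactly at 1 place, so positions are given in GRCm39. Against the Gencode gene spans used below, the windows of *Chac1*, *Gss* and *Cbs* lie wholly inside the gene, downstream of its outermost annotated start, and which start these cells use was not measured. Both strands were searched for the core of the antioxidant response element bound by NRF2, TGACNNNGC, which 12.4% of all 32851 windows of 300 bases hold, and for the element bound by ATF4 with C/EBP factors, TGATGNAAN, which 3.95% hold. These motifs do not overlap one another in the sequences shown, in which capitals mark the matches and a match on the other strand appears as its reverse complement.
*Gclm*, chr3:122038956-122039125, plus strand, up to the annotated start of the gene: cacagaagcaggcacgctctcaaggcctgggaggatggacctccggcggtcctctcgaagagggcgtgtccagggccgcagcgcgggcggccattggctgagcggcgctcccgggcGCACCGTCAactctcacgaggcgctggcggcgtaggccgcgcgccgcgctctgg
*Slc7a11*, chr3:50398071-50398312, minus strand, up to the annotated start of the gene: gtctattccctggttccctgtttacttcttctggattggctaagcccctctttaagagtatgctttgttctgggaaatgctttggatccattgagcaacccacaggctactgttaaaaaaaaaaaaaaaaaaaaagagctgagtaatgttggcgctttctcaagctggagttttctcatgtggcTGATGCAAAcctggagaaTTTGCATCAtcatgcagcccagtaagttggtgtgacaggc
*Chac1*, chr2:119181519-119181547, plus strand, the match with its flanks, inside the annotated gene: cttccctgccGTTGCATCActcctgccag

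The *Gclm* window held the NRF2 core and no ATF4 element. The *Slc7a11* window held a pair of ATF4 elements in opposite orientation and no NRF2 core, and the *Chac1* window held a single ATF4 element. *Gss*, *Mat2a*, *Ahcy* and *Cbs* held neither, which says only that these letters are not in these windows. The E-box CACGTG, a site of clock and MYC family factors held by 7.15% of windows, was found for *Cbs* alone among the 7. A match is a sequence description and not a measured binding site.

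All 14 ILC2 markers were above the floor of 3 counts in every sample, among them *Gata3*, *Il1rl1* and *Il7r*. With melatonin 2 were higher (*Rora* and *Il1rl1*) and 8 lower, while *Ptprc*, *Gata3*, *Icos* and *Il17rb* were not called. Their levels summed to 153000 to 171700 in melatonin and 220400 to 234500 in vehicle. The largest part of each sum was the cytokine *Il5*, at 40304 to 57764 in melatonin and 78846 to 85795 in vehicle. Markers of other cells moved with the groups as well. Those of macrophages and dendritic cells, 7 of 7 in the table, summed to 364 to 845 in melatonin and 1452 to 1652 in vehicle. Those of natural killer cells and ILC1s, 5 of 5 and mostly *Gzma*, summed to 75.6 to 210 and 5944 to 7224, and those of T cells, with *Cd4*, *Cd8a*, *Cd8b1* and *Cd5* not listed or at the floor, to 458 to 868 and 1203 to 1336. Epithelial markers, 7 of 7, with 1 higher and 4 lower, summed to 1058 to 1261 and 941 to 2325, the last value from vehicle replicate 3, and *Epcam* was most of the sum in melatonin. According to the methods, the sort excluded cells with surface markers of T cells, natural killer cells and myeloid cells. Its stated purity was above 95%. Fewer cells of a type and less RNA per cell cannot be told apart in bulk samples, and the part of these markers in the results that follow was not tested. Y-linked transcripts summed to between 2680 and 3038 in melatonin replicate 1 and the vehicle samples and were at 0 in melatonin replicates 2 and 3, where *Xist* was at 579 and 1091, although the methods name female mice. Sex thus runs partly along treatment, and its part in the results that follow was not tested. That all 10 genes are autosomal does not remove this limit.

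With melatonin, the transcripts of both ligase subunits rose and those of *Slc7a11*, *Cth* and *Ahcy* fell. The groups were compared with limma after a log2 transform of each value with 1 added, a scale that understates the changes of low genes. The test took in the 14419 genes that reached 10 normalized counts in any sample. Of the 10 genes, 9 passed this filter and *Cbs* did not. *Gclc*, *Gclm*, *Gsr* and *Chac1* were called higher and *Slc7a11*, *Cth* and *Ahcy* lower at a Benjamini-Hochberg adjusted p under 0.05. *Gss* and *Mat2a* were not called. Over all genes tested, 49.2% were called, 24.5% as higher and 24.7% as lower. A call by itself is therefore common, and the 7 calls among 9 genes are read beside that share. The 10 genes were chosen with earlier results of these data known, so this is a description and not an independent comparison. The median log2 fold change was 0.13 over the 9 genes and −0.00 over all genes tested.

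**Figure D1:**
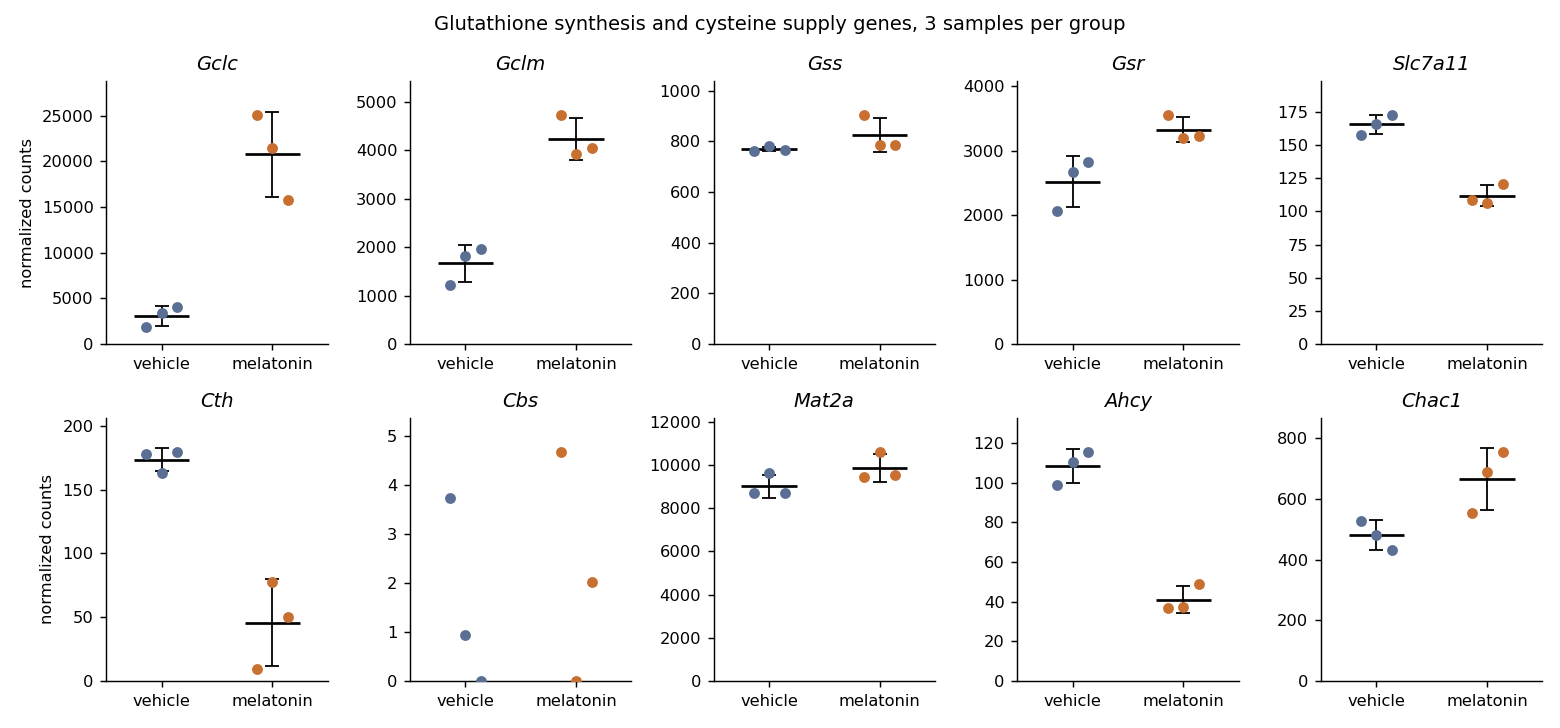
Normalized counts of each of the 10 genes in the 3 vehicle and 3 melatonin samples, with points in replicate order, the mean as a line and the SD as a bar (points only for *Cbs*); each vertical axis is linear and starts at 0. *Gclc* lies between 1906 and 4056 in vehicle and between 15800 and 25022 in melatonin, while *Slc7a11*, *Cth* and *Ahcy* are lower in every melatonin sample.

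*Gclc* (ENSMUSG00000032350, chromosome 9 of GRCm39, 77661797 to 77701770) encodes the catalytic subunit of the ligase. In melatonin replicates 1, 2 and 3 it was at 25022, 21412 and 15800 normalized counts, against 1906, 3368 and 4056 in the vehicle replicates. The lowest melatonin sample was far above the highest vehicle sample, and both groups were widely spread. Its log2 fold change was 2.78 (95% interval 2.18 to 3.38, limma adjusted p = 0.00011), a 6.87-fold difference, and place 59 among the 14419 genes tested when ordered from the largest rise.

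*Gclm* (ENSMUSG00000028124, chromosome 3, 122039126 to 122065061), the modifier that makes the ligase more efficient, had 4718, 3924 and 4055 normalized counts in melatonin and 1225, 1813 and 1960 in vehicle. Here too the groups did not overlap. Its log2 fold change was 1.37 (95% interval 0.99 to 1.74, limma adjusted p = 0.00032). The window with the NRF2 core shown above belongs to this gene, and a link of that match to the rise was not tested.

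The catalytic subunit rose more than its modifier. Per kilobase of transcript, the ratio of *Gclc* to *Gclm* was 2.87, 3.42 and 3.81 in the vehicle samples and 9.77, 10.1 and 7.18 in the melatonin samples. On the log2 scale the ratio of the counts differed by 1.41 between the groups, against an SD of 0.27 (n = 3) among melatonin and 0.21 (n = 3) among vehicle samples. The exact permutation test, two-sided and over all 20 regroupings of 6 samples, gave p = 0.1, the smallest p it allows, and the same value after adjustment over the 2 ratios tested. The ratio of *Gclc* to *Gss*, the first and second enzymes of synthesis, differed more, by 2.69 on the log2 scale (exact permutation p = 0.1). Per kilobase it was between 1.43 and 3.03 in vehicle and between 11.5 and 15.8 in melatonin. A ratio of *Cbs* to *Cth* could not be computed, since *Cbs* was at 0 in a sample of each group.

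**Figure D2:**
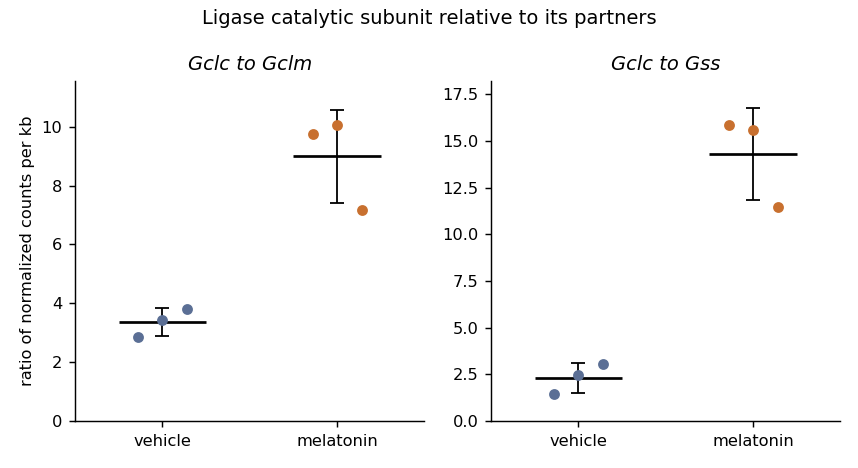
Ratio of *Gclc* to *Gclm* (left) and of *Gclc* to *Gss* (right) per sample, as normalized counts per kilobase of canonical transcript, with the mean and SD of 3 samples per group. The groups do not overlap in either ratio, and melatonin replicate 3 is the lowest of its group in both, at 7.18 and 11.5.

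*Gss* (ENSMUSG00000027610, chromosome 2, 155405096 to 155455505) carries out the second step. Its values were 902, 783 and 786 normalized counts in melatonin and 764, 780 and 765 in vehicle. Every melatonin value was above every vehicle value, the nearest pair being 783 and 780. The log2 fold change of 0.10 had a 95% interval from −0.11 to 0.30 and was not called (limma adjusted p = 0.41). A rise of the size of that of *Gsr* (0.41) lies outside this interval, which holds for this fit only. With the GC correction *Gss* was at 0.23, not called (limma adjusted p = 0.0552). Without melatonin replicate 1 *Gss* was at 0.03. A stretch of 456 bases of its transcript is shared with *Acss2* on the opposite strand, and the cDNA kit does not mark strand, so reads of this stretch cannot be told apart. *Acss2* was at 193 to 242 normalized counts in vehicle and 366 to 418 in melatonin, and its part in the *Gss* values was not tested.

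*Gsr* (ENSMUSG00000031584, chromosome 8, 34142551 to 34188192), which recycles oxidized glutathione with NADPH, was at 3545, 3198 and 3224 in melatonin and at 2070, 2660 and 2826 in vehicle. The groups did not overlap, and vehicle replicate 1 was the lowest of the 6. The log2 fold change was 0.41 (95% interval 0.14 to 0.68, limma adjusted p = 0.019). Without vehicle replicate 1 it was 0.28 and was not called (limma adjusted p = 0.0549).

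*Chac1* (ENSMUSG00000027313, chromosome 2, 119180757 to 119184866) acts against the accumulation of glutathione by cleaving it. It had 554, 688 and 755 normalized counts in melatonin and 528, 483 and 431 in vehicle. Melatonin replicate 1 and vehicle replicate 1 lay close to each other, and the other samples were well apart. The log2 fold change of 0.46 (95% interval 0.15 to 0.77) passed the threshold in limma with an adjusted p of 0.021. Leaving out single samples removed the call in 4 of 6 cases, namely without melatonin replicate 2 or 3 or vehicle replicate 2 or 3, with values between 0.37 and 0.47 and adjusted p between 0.0623 and 0.0839 in limma.

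**Figure D3:**
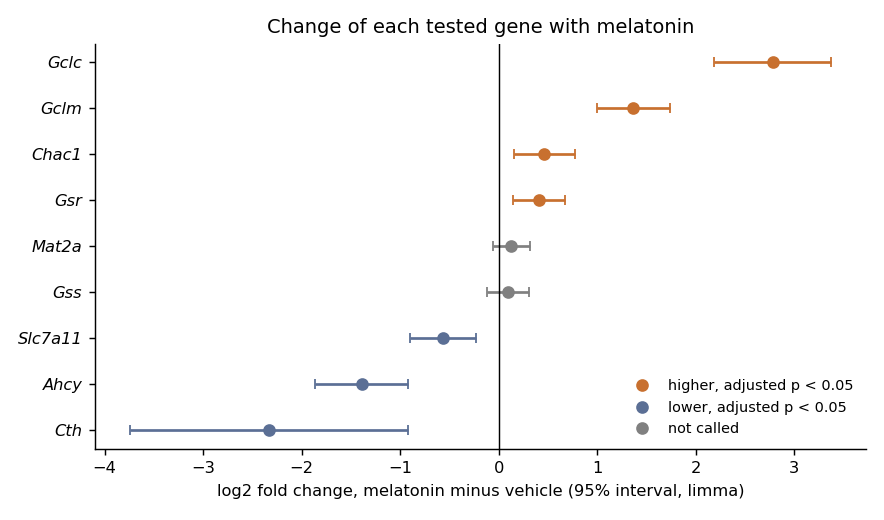
Log2 fold change of melatonin over vehicle with its 95% interval from limma for the 9 genes tested, in order of size; colour shows the call. The intervals of *Mat2a* and *Gss* include 0, and that of *Cth*, from −3.74 to −0.92, is the widest.

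On the side of cysteine supply, *Slc7a11* (ENSMUSG00000027737, chromosome 3, 49846975 to 50398070), the transporter subunit of the cystine antiporter, was low in all samples. It had 109, 106 and 121 normalized counts in melatonin and 158, 166 and 172 in vehicle, and the groups did not overlap. A log2 fold change of −0.56 was estimated (95% interval −0.90 to −0.23, limma adjusted p = 0.013). Without vehicle replicate 3 it was −0.53 and was not called (limma adjusted p = 0.0517). A stretch of 585 bases, 6.3% of the canonical transcript, is 92.5% identical to the α-tubulin gene *Tuba1b*, which was at 77829 to 80847 in vehicle and 55916 to 65454 in melatonin. Whether tubulin reads contribute to the value of *Slc7a11* was not tested.

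The partner of xCT moved the other way. *Slc3a2*, the 4F2hc heavy chain that also serves other amino acid transporters, rose from 10568 ± 284 (SD, n = 3) to 15641 ± 860 (SD, n = 3) normalized counts. Its log2 fold change was 0.56 (limma adjusted p = 0.00052), about the size of the fall of *Slc7a11*.

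*Cth* (ENSMUSG00000028179, chromosome 3, 157599868 to 157630739) encodes cystathionine γ-lyase, the enzyme that releases cysteine in transsulfuration. It was at 178, 163 and 179 normalized counts in vehicle and at 9.34, 77.6 and 50.3 in melatonin. All melatonin samples were below all vehicle samples, but relative to their mean they were more widely spread than either group of the other 8 genes tested, and replicate 1 rests on 10 estimated reads. The estimated log2 fold change was −2.33 (95% interval −3.74 to −0.92, limma adjusted p = 0.014). Without melatonin replicate 1 it was −1.46, still called (limma adjusted p = 0.000839), so the size of the fall rests on that sample.

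*Cbs* (ENSMUSG00000024039, chromosome 17, 31827868 to 31856646), the enzyme before *Cth*, was close to absent. It had 5, 0 and 2 estimated counts in melatonin and 4, 1 and 0 in vehicle, with 3 counts taken as the floor. No fold change was computed, and a difference between the groups was not detectable at this depth.

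*Mat2a* (ENSMUSG00000053907, chromosome 6, 72409779 to 72416684), which makes S-adenosylmethionine from methionine, was abundant. Its values of 9464, 10606 and 9555 in melatonin overlapped with 8729, 9629 and 8711 in vehicle. The log2 fold change of 0.13 (95% interval −0.06 to 0.31) was not called (limma adjusted p = 0.21). A stretch of 788 bases is shared with *Ggcx* on the opposite strand, a gene at 141 to 161 normalized counts in vehicle and 374 to 395 in melatonin. Reads of this stretch cannot be told apart either.

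*Ahcy* (ENSMUSG00000027597, chromosome 2, 154901230 to 154916422) encodes S-adenosylhomocysteine hydrolase, which yields homocysteine. It was listed at only 37.0, 37.1 and 49.1 normalized counts in melatonin and 98.9, 111 and 115 in vehicle, a log2 fold change of −1.39 (95% interval −1.86 to −0.92, limma adjusted p = 0.00088). These values may not stand for all its reads. *Ahcyl* (ENSMUSG00000048087), annotated as a separate gene, is 99.7% identical over 2083 bases of the *Ahcy* transcript, and it was listed at 7620, 7151 and 7451 in vehicle and at 2952, 3348 and 3624 in melatonin. A pseudogene, *Gm9826*, is 99.2% identical over 1299 bases and was at 57.1 to 74.7 in vehicle and 21.9 to 43.1 in melatonin.

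**Figure D4:**
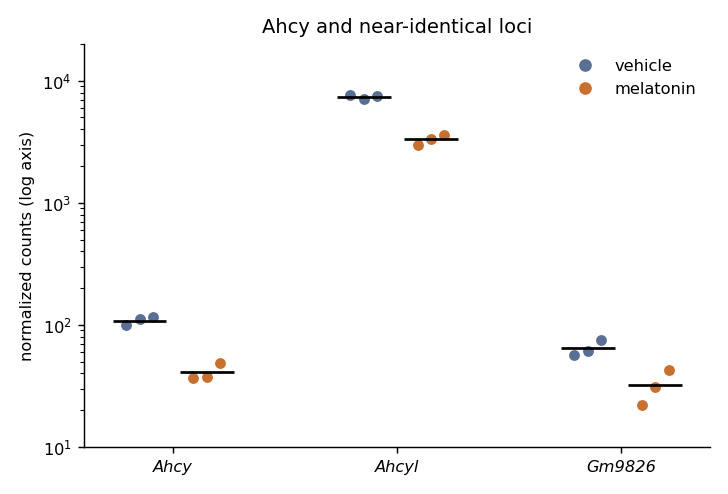
Normalized counts, on a log axis, of *Ahcy* and the 2 loci nearly identical to it, with the 3 samples of each group and their mean. Most of the reads are listed under *Ahcyl*, and all 3 loci are lower in every melatonin sample.

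The reads of these 3 loci cannot be assigned with certainty, and their sum was tested in place of *Ahcy*, a choice made after the data had been seen. The sum was 7580 ± 233 (SD, n = 3) in vehicle and 3381 ± 354 (SD, n = 3) in melatonin. Its log2 fold change was −1.17 (limma adjusted p = 4.87e-05). The direction and the call of *Ahcy* were thus the same for the 3 loci together, at a far higher level. By contrast *Ahcyl2*, which encodes a distantly related protein, rose from 4286 ± 195 (SD, n = 3) to 13615 ± 1373 (SD, n = 3) normalized counts, a log2 fold change of 1.66 (limma adjusted p = 1.3e-05).

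Of the 9 genes tested, 5 were higher in every melatonin sample than in every vehicle sample and 3 were lower in every one, with *Mat2a* overlapping. Among all genes tested, 30.0% were higher and 30.3% lower in this sense, 60.4% in all.

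The levels of the genes were compared per kilobase of canonical transcript, as group means of normalized counts. In vehicle the order was *Mat2a* at 3130, *Gsr* at 942, *Gclc* at 903, *Gss* at 391, *Chac1* at 289, *Gclm* at 262, *Cth* at 95.4, *Ahcy* at 42.5, *Slc7a11* at 17.9 and *Cbs* at 0.25. Of the neighbours in this order, *Gsr* and *Gclc*, and *Chac1* and *Gclm*, overlapped between samples. In melatonin *Gclc* at 6020 moved above *Mat2a* at 3425, and *Gclm* at 667 moved above *Gss* at 419 and *Chac1* at 400, the last pair overlapping. At the lower end *Cth* at 25.1 overlapped with *Ahcy* at 16.1 and *Slc7a11* at 12.1. Among 12952 protein-coding genes ranked per kilobase, *Gclc* stood at place 1803 in vehicle and 147 in melatonin, while *Slc7a11* stood at 9782 and 10065. The place given to *Ahcy* leaves out the reads listed under its near-identical copies.

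Likeness to *Gclc* was measured as the root mean square difference of log2 values centred on each gene's mean over the 6 samples, among the 9989 other tested genes whose mean reached 100 normalized counts. The 3 most alike were *Mycn*, *Trim62* and *Tmem64*, with differences of 0.26, 0.30 and 0.31. Their log2 fold changes were 2.60, 2.27 and 2.41. Among the 10 genes *Gclm* was nearest, at place 182 with a difference of 0.73, and *Gsr* was next, at place 2070.

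Genes next to these in the pathway were followed as lists. The lists too were chosen with earlier results of these data known, so their counts are description only. Glutathione that leaves the cell or is cleaved in it returns to its amino acids through the γ-glutamyl cycle and peptidases. Of 15 such genes 12 were tested, and 1 was higher, 5 were lower and 6 were not called. The median log2 fold change of −0.54 takes in *Anpep*, *Dpep2* and *Ggt5*, which passed the filter only through the vehicle samples. It is not read as a change of the list. Over all genes tested 24.5% were higher and 24.7% lower, 49.2% in all. *Lap3*, a leucine aminopeptidase, fell from 1367 ± 71.3 to 613 ± 105 (SD, n = 3) normalized counts, a log2 fold change of −1.17. *Cndp2*, a dipeptidase that splits cysteinylglycine, had −0.82, and −0.53 without melatonin replicate 1, still called. The glutathione and leukotriene exporter *Abcc1* had −0.40 and lost its call without vehicle replicate 1 or 3 and without limma's trend, and it was at −0.26 without melatonin replicate 1. *Anpep* and *Dpep2*, below a mean of 100, were the other genes lower. Both passed the filter on low values only through the vehicle samples, and without them 3 genes of the list were lower. *Chac2*, which cleaves glutathione like *Chac1*, was the gene called higher, at 0.56, and lost its call without melatonin replicate 2 or vehicle replicate 3 and within libraries with Y-linked transcripts. *Ggct* was at 128 ± 23.1 in melatonin and 158 ± 6.16 (SD, n = 3) in vehicle and was not called, at −0.31. Within the libraries with Y-linked transcripts, with 1 melatonin sample, it was at −0.61. *Ggt1* and *Ggt5*, γ-glutamyl transferases that open the cycle at the cell surface, were at 3.28 to 21.5 and at 0 to 16.8 normalized counts over the 6 samples. Neither was called. *Ggt5* passed the filter only through the vehicle samples. Its log2 fold change was −0.64 with a pseudocount of 10 and −3.29 with 0.1, so its call as lower without melatonin replicate 2 is not read.

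A list of cysteine and cystine transport genes, which leaves out *Slc7a11* and takes in carriers with other main substrates, held 9 genes. Of these 6 were tested, 5 were higher, none was lower and 1, *Slc1a1*, was not called, with a median log2 fold change of 0.49, beside 24.5% higher over all genes tested. *Slc3a2*, described above, was 1 of the 5. *Ctns*, which exports cystine from lysosomes, rose from 185 ± 16.2 to 383 ± 110 (SD, n = 3) normalized counts, a log2 fold change of 1.01 (limma adjusted p = 0.0029). *Slc1a4*, a carrier of alanine, serine and cysteine, had 0.87 (limma adjusted p = 0.002). The other genes called higher were *Slc1a5* and *Slc38a2*, better known as glutamine carriers, and *Slc1a5* lost its call without vehicle replicate 1 and within libraries with Y-linked transcripts.

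Of 17 methionine cycle and salvage genes 13 were tested, with 4 higher, 4 lower and 5 not called and a median of 0.01. Calls in both directions are also what all genes tested showed, with 24.5% higher and 24.7% lower. *Mat2b*, the regulatory partner of *Mat2a*, rose from 2548 ± 82.0 to 3500 ± 249 (SD, n = 3) normalized counts, a log2 fold change of 0.46 (limma adjusted p = 0.0019). *Ahcyl1*, a relative of *Ahcyl2*, had 0.49 (0.28 without vehicle replicate 1) and lost its call in 10 alternatives. These were the fits without melatonin replicate 1 or 2 or vehicle replicate 1 or 2, upper quartile scaling, limma without the trend, the replicate number as a block, the length correction, the GC correction and the libraries with Y-linked transcripts alone. *Mri1* and *Enoph1*, of methionine salvage, fell by 1.29 and 0.82 on the log2 scale, and *Amd1*, at the entry to polyamine synthesis, by 0.54. *Amd1* has 1 near-identical copy in the table, so its own value is uncertain. Without melatonin replicate 2 or without vehicle replicate 1, 2 genes of the list were higher instead of 4.

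Of the 13 tested genes that use cysteine or oxidize sulfide, 5 were higher, 4 lower and 4 not called, with a median of 0.15, again beside 24.5% higher and 24.7% lower over all genes. *Sqor*, which oxidizes sulfide in mitochondria, rose from 108 ± 19.5 to 268 ± 42.9 (SD, n = 3) normalized counts, a log2 fold change of 1.31. *Csad*, of taurine synthesis, had 1.20 and *Pank1*, of coenzyme A synthesis, 1.40. *Gadl1* fell by 1.09, *Got2* by 0.77 and *Got1* by 0.58 on the log2 scale. *Got2* has near-identical copies in the table, and its own value is uncertain.

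**Figure D5:**
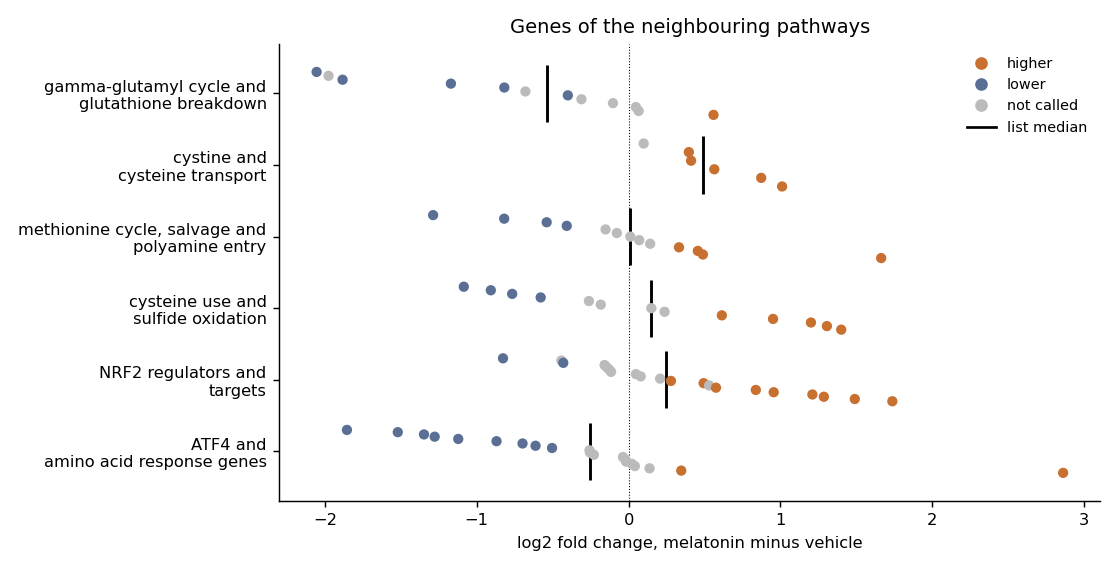
Log2 fold change of each tested gene in 6 lists next to the 10 genes, with the list median as a vertical bar and colour for the call. The 5 called genes of the transport list, which leaves out *Slc7a11*, lie to the right of 0, while the ATF4 list holds 9 genes lower and 2 higher.

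The lists of NRF2 and of ATF4 genes leave out the 10 genes. Of the 20 NRF2 regulators and targets 9 were higher, 2 lower and 9 not called, with a median of 0.24, beside 24.5% higher, 24.7% lower and 49.2% called in all over the genes tested. *Nqo1*, a quinone reductase, rose from 2271 ± 172 to 7676 ± 1718 (SD, n = 3) normalized counts, a log2 fold change of 1.74. *Srxn1*, which repairs peroxiredoxins, had 1.29, and *Ftl1*, the ferritin light chain, 1.49, with 5 near-identical copies in the table that make its own value uncertain. *Nfe2l2*, which encodes NRF2, was higher at 1.21 (limma adjusted p = 0.00015). Of the pentose phosphate pathway, *G6pdx*, the X-linked entry enzyme, was higher at 0.49 (limma adjusted p = 0.008) and *Tkt* was lower at −0.43, and *Maff*, below a mean of 100, was the other gene lower, with its call lost without melatonin replicate 1 or 3 or vehicle replicate 2 or 3 and under quantile normalization. *Hmox1*, a classical target, was not called at −0.12, but was called lower at −0.22 without melatonin replicate 1. Without melatonin replicate 3, vehicle replicate 2 or vehicle replicate 3, 1 gene was lower instead of 2.

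Of the 20 ATF4 and amino acid response genes 2 were higher, 9 lower and 9 not called, with a median of −0.26, beside the same shares over all genes of 24.5% higher and 24.7% lower. *Nupr1*, a stress response regulator, fell from 1423 ± 79.8 to 403 ± 106 (SD, n = 3) normalized counts, a log2 fold change of −1.85 (limma adjusted p = 0.00014). *Atf3* was at −1.28 and the cationic amino acid transporter *Slc7a3* at −1.35. The call of *Slc7a3* was lost without any one of the vehicle samples and without limma's trend, and its value was −0.73 without melatonin replicate 1. *Atf4* itself was at −0.50 (limma adjusted p = 0.029), a call lost in 8 alternatives, among them the fits without melatonin replicate 2 or any one of the vehicle samples. Without melatonin replicate 1 *Atf4* was at −0.30, still called. *Cebpb* at 2.86 and *Ddit3* at 0.35 were higher. *Cebpb* was at 12.1, 59.6 and 189 in the vehicle samples and lost its call without melatonin replicate 2, without limma's trend and within libraries with Y-linked transcripts, and its value was 1.85 without vehicle replicate 1. *Ddit3* lost its call without vehicle replicate 2 or 3 and under quantile normalization. *Ddit3* has 1 near-identical copy in the table. Without melatonin replicate 1, 4 genes of this list were higher.

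The 4 libraries with Y-linked transcripts leave 1 melatonin sample, assumed to vary like the vehicle samples, so the melatonin group has no spread of its own there. Within them the log2 fold changes were 3.08 for *Gclc*, 1.53 for *Gclm*, −0.60 for *Slc7a11*, −4.08 for *Cth* and −1.52 for *Ahcy*. *Gsr* was at 0.51 and *Chac1* at 0.21. The value of *Cth* rests on the 10 estimated reads of melatonin replicate 1.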

How the data were processed

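Bulk RNA was sequenced from 3 melatonin and 3 vehicle samples of sorted aILC2s. According to the methods, the authors trimmed reads in Partek Flow (Phred 35, at least 25 bp), used STAR with the mm39 index, assigned reads to Gencode M33 genes by the Partek E/M algorithm, removed genes by a filter of 10 counts and applied the median ratio normalization of DESeq2. In the deposited table the filter holds for the sum over samples, which was at least 10 for every gene, and not for single samples. The deposited values are thus a normalized signal per gene, with estimated reads brought to a common scale. The spacing of the values gave the value of 1 read per sample, but between 64.6% and 67.0% of values were whole multiples at a tolerance of 0.01, so whole reads were not recovered and no count model was used. The 10 genes and all lists were chosen with earlier results of these data known. Names, positions and canonical transcript lengths came from Gencode M39 on GRCm39, which named 16334 of 16381 identifiers.

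Groups were compared in R 4.3.3 by limma 3.58.1 (linear model, empirical Bayes with a mean-variance trend) on log2(normalized count + 1) with treatment as the only term, adjusted by Benjamini-Hochberg over 14419 genes. The authors' DESeq2 test was not repeated, since it needs counts. From each list, the up to 3 largest called rises and falls with a mean of at least 100 are named, with *Slc3a2* and *Ggct* added, and genes outside this rule were named after their values were seen. Near-identical copies were found with BLAST 2.17.0 (at least 95% identity over at least 50% of a transcript). Alternatives were pseudocounts of 0.1 and 10, 2 other filters, 3 other scalings, limma without the trend, with sample weights or on estimated counts (voom), the replicate number as a block, length and GC corrections, each sample left out, and libraries with Y-linked transcripts alone. Library numbers in the labels run from 20 to 22 for melatonin and from 32 to 34 for vehicle, and a batch along them cannot be told apart from treatment. Counting floors cover counting error only.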

Additional observations from a re-analysis of the deposited data

How the results depend on the processing

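*Gclc*, *Gclm* and *Ahcy* kept their direction and call under every alternative run that tested them, with log2 fold changes between 2.46 and 3.08, 1.16 and 1.53, and −1.52 and −1.17 (*Ahcy* fell outside the filter on a mean of at least 100). None of the 9 genes changed direction under any alternative. *Cth*, at −2.33, was not called without limma's trend (adjusted p = 0.0532), nor were *Gsr* at 0.41 (0.0632) and *Chac1* at 0.46 (0.054), which left 2 of the 10 genes higher. Within libraries with Y-linked transcripts 2 were higher as well, with *Gsr* at 0.51 and *Chac1* at 0.21 not called. *Chac1* was also not called under quantile normalization, at 0.39 (adjusted p = 0.0523), where *Mat2a* at 0.27 was called (0.0174). Over the 6 fits lacking 1 sample, the values were 0.28 to 0.50 for *Gsr*, −0.62 to −0.53 for *Slc7a11*, −2.92 to −1.46 for *Cth* and 0.37 to 0.59 for *Chac1*. The causes were not tested.

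The replicate numbers did not pair the samples: the deviations of same-numbered samples correlated at −0.05, 0.01 and −0.05. With the replicate block, the calls went from 7094 to 6438 and *Chac1* at 0.46 was not called (limma adjusted p = 0.0518). The other 8 genes tested kept their call or lack of one.

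Of the list counts, the γ-glutamyl list had 3 genes lower with a mean of at least 100 and 0 higher within libraries with Y-linked transcripts. The NRF2 list had 1 lower with a mean of at least 100 or with quantile normalization and 4 with sample weights. The ATF4 list had 1 higher with quantile normalization or without the trend and 14 lower within libraries with Y-linked transcripts. With 1 sample left out, genes higher ranged from 0 to 1 in the γ-glutamyl list, 2 to 4 in the methionine list and 1 to 4 in the ATF4 list, and genes lower from 1 to 3 in the NRF2 list. Of the other genes named, 3 that were not called changed direction, with *Slc1a1* at −0.022 under the length correction and between −0.17 and 0.47 with 1 sample left out, and *Hmox1* at 0.092 and *Ggt1* at 0.38 within libraries with Y-linked transcripts. Called values that moved by over 1.5 times under other settings included *Ddit3* at 0.60 and *Slc38a2* at 0.27 with the length correction, *Anpep* at −1.32 and *Dpep2* at −0.88 with a pseudocount of 10, and, within libraries with Y-linked transcripts, *Slc1a4* at 0.57, *Pank1* at 2.11, *G6pdx* at 0.78, *Cndp2* at −1.39, *Abcc1* at −0.67, *Slc7a3* at −2.58 and *Atf4* at −0.91. Depth limits *Cbs*, at 5 estimated counts or fewer in every sample, and *Cth* in melatonin replicate 1.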

Other observations

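With 3 samples per group every gene has a lowest and a highest sample, and the share over all genes was not computed. The places of 2 samples are therefore description only. Vehicle replicate 1 was the lowest vehicle sample for *Gclc* at 1906, *Gclm* at 1225, *Gsr* at 2070 and *Ahcyl1* at 1286 normalized counts. It was the highest for *Chac1* at 528 and the middle one for *Cth* at 178. Melatonin replicate 1 was the highest melatonin sample for *Gclc* at 25022, *Gclm* at 4718, *Gsr* at 3545 and *Nqo1* at 9650, and the lowest for *Cth* at 9.34, *Chac1* at 554, *Atf4* at 2983 and *Cndp2* at 1955. Melatonin replicate 1 was also the only melatonin sample with Y-linked transcripts. These values were looked up after the data had been seen and no test was made of them.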
